A study of Mus musculus with 4 samples.

Results

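The 64 genes described here encode the translation initiation and elongation factors of the mouse, their kinases and inhibitors, and enzymes that modify them. The rule took every gene of the deposited count table whose symbol starts with Eif or Eef, with Eif6 left out. It used no measured value, but it was set with earlier results of these data known, so shares of the group that were called are no independent evidence about it. This gave 51 Eif and 13 Eef genes among the 12486 genes measured. Transcription was measured by PRO-seq, in which nuclei extend nascent RNA with labelled nucleotides so that reads mark engaged RNA polymerase, in AID-Zfp574 mouse embryonic stem cells (mESCs). These cells carry an auxin-inducible degron at the N terminus of the zinc-finger protein Zfp574 in an OsTir1 parental line, and came from an originally haploid line that is now diploid. The control was 2 libraries at 0 h without the auxin IAA, and the depletion group was 2 libraries after 6 h of 500 µM IAA. Control and depletion cells carried the same tag and the same OsTir1 transgene, so the comparison is of auxin against no auxin, and an effect of IAA apart from the loss of Zfp574 cannot be told apart from it here.

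Translation begins when initiation factors load the small ribosomal subunit with the initiator tRNA, recruit it to the capped end of an mRNA and move it to the start codon, where the large subunit joins. eIF2 carries the initiator tRNA and is switched off by stress-activated kinases, eIF3 is the scaffold on the small subunit, and the eIF4 group binds the cap and unwinds the mRNA. The elongation factor eEF1A then delivers each aminoacyl-tRNA and eEF2 moves the ribosome along. Dedicated methyltransferases modify lysines of both elongation factors.

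The libraries held 3298864 and 3616429 counts in the controls against 6045216 and 5670904 after depletion. Of 10 stem cell markers, 9 were in the table, with a summed level between 4152 and 4277 CPM (counts scaled to a common library size) in every library, and only Utf1 was called, at -0.61. Of the markers of other cell types, Foxa2 and Sox17 had between 1 and 8 counts, Thy1 between 3 and 9 and Eomes between 23 and 54, and the other listed markers of primitive endoderm, trophoblast and fibroblasts had no row. Levels are CPM, after scaling with the trimmed mean of M values, given as mean ± SD (n = 2), and changes are log2 fold changes of depletion over control. A gene was called when the p of edgeR's quasi-likelihood (QL) test, adjusted by Benjamini-Hochberg over the 11853 genes tested, was under 0.05, and each adjusted p below is from edgeR unless DESeq2 is named. In such bulk libraries, fewer cells transcribing a gene and less transcription per cell cannot be told apart.

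Most translation factor genes moved little within 6 h of depletion. Of the 64 genes, 63 passed the filter on low counts and were tested, and Eif3j2, a near-identical copy of Eif3j1, was removed with 3, 3, 8 and 5 counts. Eef1akmt2, Eif3g, Eif2s1 and Eif4b fell, and none of the 63 rose. These 4 were 6.35% of the genes tested in the group, beside 1.4% of all genes tested that were called lower. The 0 called higher stand beside 1.11% of all genes. At an unadjusted p under 0.05 in the same edgeR test, 13 of the 63 genes were lower and 2 were higher. Of all 11853 genes tested, 908 (7.66%) were lower and 1011 (8.53%) higher. Only Eef1akmt2 and Eif3g fell by at least 2-fold, which was 3.17% of the group, beside 0.321% of all genes tested.

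**Figure D1:**
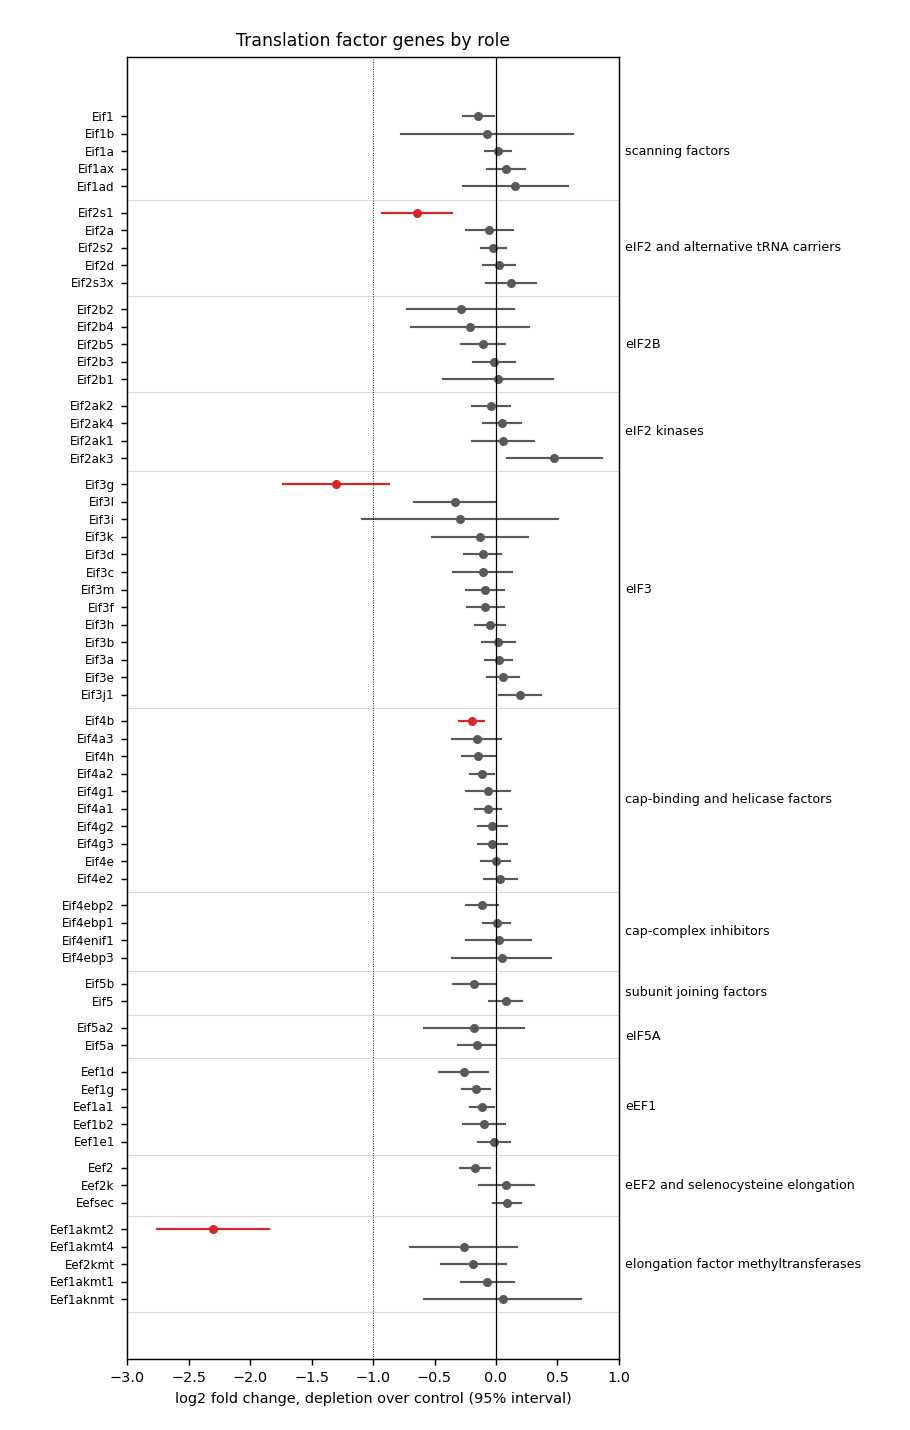
Log2 fold change of depletion over control (x axis) for the 63 translation factor genes tested, grouped by role. Points are estimates, bars are 95% intervals from 2 against 2 libraries, the dotted line marks a 2-fold fall, and red marks the 4 genes at an adjusted p under 0.05, of which Eef1akmt2 at -2.30 and Eif3g at -1.30 lie beyond that line.

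Eef1akmt2 encodes a methyltransferase that acts on a lysine of eEF1A. The gene (ENSMUSG00000030960) lies at chr7:132827457-132852673 on the minus strand of mm10. It held 67 and 65 counts in the controls against 23 and 21 after depletion, from libraries that were deeper after depletion. This corresponded to 20.1 and 17.7 CPM in the controls against 3.86 and 3.74 CPM after depletion. The groups were far apart, and the depletion libraries differed from each other by much less than the gap. The mean fell from 18.9 ± 1.69 to 3.80 ± 0.0893 CPM (20.2% of control), and the log2 fold change was -2.30 (SE 0.22, 95% interval -2.76 to -1.85). The edgeR QL adjusted p was 6.01e-08. Eef1akmt2 kept its call in each of the 13 alternative settings that tested it, between -2.42 and -2.21. The annotated model of Fgfr2 spans this locus on the same strand and has no row in the table, so reads of a longer Fgfr2 transcript would count toward Eef1akmt2. Whether such reads were present was not tested.

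Eif3g encodes an RNA-binding subunit of eIF3. It lies at chr9:20894349-20898623 on the minus strand (ENSMUSG00000070319). Eif3g had 55 and 57 counts in the controls against 34 and 41 after depletion, or 16.5 and 15.6 CPM against 5.71 and 7.30 CPM. Both depletion libraries were well below both controls. The mean fell from 16.0 ± 0.687 to 6.50 ± 1.12 CPM (40.6% of control), and the log2 fold change was -1.30 (SE 0.21, 95% interval -1.73 to -0.87). The edgeR QL adjusted p was 0.000239, and the call held in each of the 13 alternatives that tested the gene, between -1.48 and -1.13.

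The sequence just upstream of these start sites is shown because both genes that fell by at least 2-fold hold the same 8 bases there. RefSeq promoters (GRCm38.p6, from 250 bases before to 50 bases after a start) were found for 52 of the 64 genes and not for 12. The promoters of Eef1akmt2 and Eif3g shared 6 words of 8 letters on either strand. The word in capitals, GCCTAGAG or its reverse complement CTCTAGGC, was picked after the values were seen, as the one that the most genes lower by at least 2-fold also held. The stretch of Eef1akmt2 is chr7:132852674-132852897 and that of Eif3g is chr9:20898624-20898840, both written 5′ to 3′ on the minus strand and both ending before the annotated starts.
Eef1akmt2: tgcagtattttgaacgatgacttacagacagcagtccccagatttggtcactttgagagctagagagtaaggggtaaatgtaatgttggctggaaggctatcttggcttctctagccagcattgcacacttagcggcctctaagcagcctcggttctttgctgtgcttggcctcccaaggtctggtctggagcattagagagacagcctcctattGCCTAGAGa
Eif3g: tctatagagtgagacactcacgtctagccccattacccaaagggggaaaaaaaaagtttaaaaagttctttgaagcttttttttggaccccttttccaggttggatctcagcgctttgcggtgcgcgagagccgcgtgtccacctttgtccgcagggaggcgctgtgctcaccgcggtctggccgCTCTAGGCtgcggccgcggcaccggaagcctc

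The first base of the word lay 35 bases upstream of the RefSeq start of Eef1akmt2 and 9 bases upstream of its GENCODE start. In Eif3g it lay 65 and 32 bases upstream, and on the opposite strand. GCCTAGAG or CTCTAGGC occurred in 443 of 32851 listed promoters (1.35%) and in those of 172 of 9297 genes tested (1.85%). It occurred in 7 of the 34 genes lower by at least 2-fold that had a promoter sequence (20.6%), and both genes above are among these 7. That share is the one the word was picked for and has no test. Among the other shared words, on either strand, GTTCTTTG and ACTTTGAG each occurred in 8.82% of these 34 genes, beside 1.08% and 1.02% of genes tested. GGAGGCGC occurred in 11.8%, beside 6.44%, and AGCACAGC and GGGAGGCG in 5.88% each, beside 2.4% and 9.88%. These shares also count Eef1akmt2 and Eif3g and have no test. The shorter CTAGAG or CTCTAG, which GCCTAGAG contains, occurred in 14.6% of the 32851 listed promoters. Of the 52 translation factor genes, 7 (13.5%) had it in any listed promoter. The first share counts promoters and the second counts genes, which can have several promoters, so the shares are not directly comparable. The Eef1akmt2 stretch held the shorter word 3 times. A match describes letters and is not evidence of binding.

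The third translation factor gene with the 8-base word was Eif4enif1, which encodes a protein that carries eIF4E into the nucleus. The word lay 58 or 82 bases upstream of RefSeq starts but 545 bases downstream of the GENCODE start, again on the opposite strand. It is shown with 8 bases on each side, beside the same window of the genes that fell.
Eef1akmt2: ctcctattGCCTAGAGaggccagg
Eif3g: tctggccgCTCTAGGCtgcggccg
Eif4enif1: tgcgccggCTCTAGGCggccgacc

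Eif4enif1 had 107 and 124 counts in the controls against 180 and 208 after depletion, or 33.0 ± 1.19 against 33.6 ± 4.79 CPM. Its groups overlapped, and its log2 fold change was 0.02 (SE 0.13, edgeR adjusted p 0.962). Eif4enif1 thus held the word in a RefSeq promoter and was not called.

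Besides Eef1akmt2, 4 genes for methyltransferases of elongation factors were tested, and none was called. Eef1akmt1, which like Eef1akmt2 encodes a lysine methyltransferase of eEF1A, had 50.2 and 47.5 CPM in the controls against 45.9 and 47.2 CPM after depletion. Its depletion libraries lay just below the controls, with a log2 fold change of -0.07 (95% interval -0.28 to 0.15). Eef1akmt4 overlapped between groups at 15.3 and 9.83 against 10.4 and 10.3 CPM, a change of -0.26 (-0.70 to 0.18) that moved to 0.08 once control replicate 1 was left out and to -0.56 once control replicate 2 was. Eef1aknmt, also known as Mettl13, which modifies eEF1A at its N terminus and a lysine, also overlapped, at 5.41 and 3.82 against 4.87 and 4.63 CPM, a change of 0.05 (-0.58 to 0.69) that moved to 0.31 and -0.19 without those same libraries. Eef2kmt, whose product methylates eEF2, had 30.7 and 30.3 CPM in the controls against 26.5 and 27.1 CPM after depletion. Its groups did not overlap, with a change of -0.19 (-0.45 to 0.08). The adjusted p of these 4 genes was at least 0.515 in edgeR. Each of the 4 intervals lay above the whole interval of Eef1akmt2. Eef1akmt3 and the muscle and neuron form Eef1a2 had no row under those names.

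**Figure D2:**
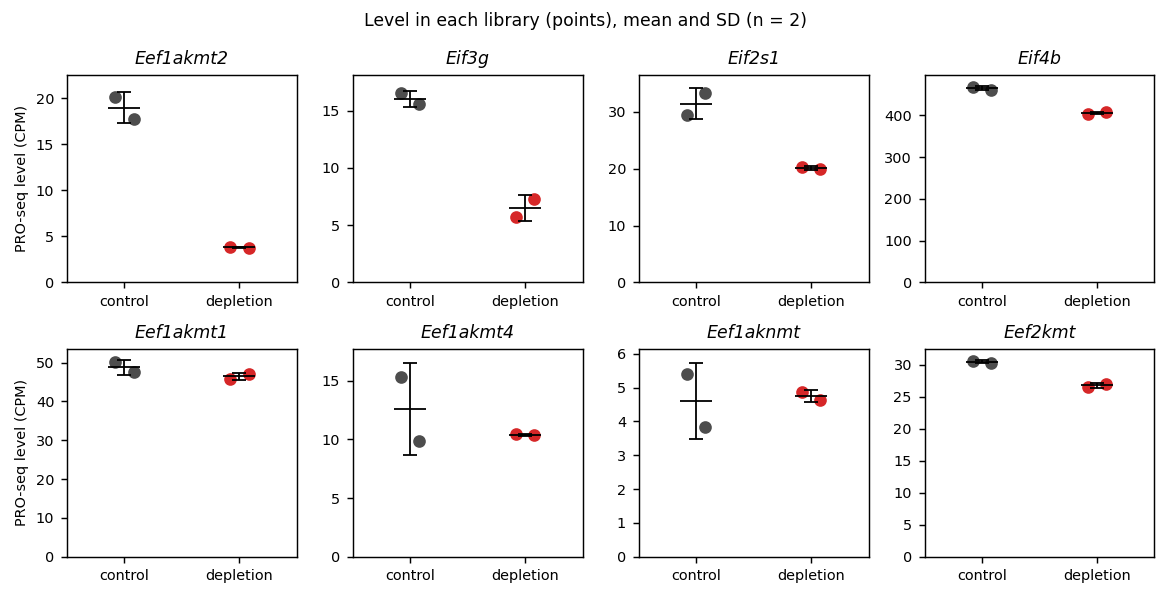
PRO-seq level in CPM (y axes, each from 0) in the 2 control (grey) and 2 depletion (red) libraries for the 4 genes called lower (top) and for the other 4 methyltransferase genes (bottom). Points are libraries and bars are mean and SD. The groups are separated in each top panel, from 18.9 to 3.80 CPM in Eef1akmt2 but only from 465 to 405 CPM in Eif4b, while Eef1akmt4 and Eef1aknmt overlap.

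Substrates and main elongation factors showed small, uncalled differences. Eef1a1, the gene for the eEF1A made in most cells, had 640 and 605 CPM in the controls against 566 and 584 CPM after depletion. These did not overlap, and the log2 fold change was -0.11 (95% interval -0.22 to -0.01, edgeR adjusted p 0.234). All 5 genes classed here with eEF1 had a log2 fold change below 0, beside 50.6% of all genes tested, with a median of -0.11. The smallest was in Eef1e1, at -0.02 (95% interval -0.15 to 0.11) with overlapping groups. Eef1d, a subunit of the exchange factor that reloads eEF1A with GTP, had the largest at -0.26 (SE 0.10, edgeR adjusted p 0.156). Eef1d overlaps Naprt on the same strand, so reads in the overlap may come from either gene. Eef2 had 316 and 329 CPM in the controls against 301 and 272 CPM, without overlap, and a change of -0.17 (adjusted p 0.133). Eef2k, the kinase that inactivates eEF2, overlapped between groups at 0.08 (adjusted p 0.768), or -0.07 without control replicate 2 and -0.03 without depletion replicate 2. Eefsec, which delivers selenocysteine, was slightly above in both depletion libraries at 0.09 (adjusted p 0.442). For eIF5A, which helps the ribosome through difficult peptide bonds, Eif5a was at -0.15 (adjusted p 0.328) and Eif5a2 at -0.18 (adjusted p 0.726). Leaving out control replicate 1 put Eif5a2 at 0.10, and leaving out control replicate 2 put it at -0.43.

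Eif2s1, the gene for the alpha subunit of eIF2 that carries the regulatory phosphorylation site, was the third gene called. It lies at chr12:78861819-78887010 on the plus strand (ENSMUSG00000021116). It held 98 and 122 counts in the controls against 121 and 112 after depletion, or 29.5 and 33.3 CPM against 20.3 and 19.9 CPM. The groups did not overlap, and the mean went from 31.4 ± 2.72 to 20.1 ± 0.279 CPM, 64.0% of control. The log2 fold change was -0.64 (SE 0.14, 95% interval -0.93 to -0.36), with an edgeR adjusted p of 0.00695. The call held in 9 of 14 alternatives. The adjusted p was 0.486 in DESeq2 and 0.097 in DESeq2 with the size factors recovered from the deposited mean normalized signal. In edgeR it was 0.0612 without control replicate 2, 0.0924 without depletion replicate 1 and 0.0930 without depletion replicate 2. The direction was lower throughout, from -0.75 to -0.55.

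Eif2s1 shares its start region with Atp6v1d, a gene for a subunit of the vacuolar proton pump that is transcribed the other way from a start 181 bp apart. Atp6v1d had 35 and 34 counts in the controls against 81 and 53 after depletion, with a log2 fold change of 0.23 and an edgeR adjusted p of 0.674. Whether both genes differed from each other in their change was not tested. Across the group, 6 genes had a divergent neighbour that was tested with its start within 1000 bp. None of these 6 neighbours was called, beside 1.4% of all genes tested called lower and 1.11% called higher. So few genes cannot show whether neighbours differ from that share. Their log2 fold changes ran from -0.13 to 0.23.

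The other carriers of the initiator tRNA and the exchange factor eIF2B were not called. Of the 5 genes for eIF2 subunits and alternative carriers, 1 was called and 3 were below 0, beside 50.6% of all genes tested, with a median of -0.02. All 5 eIF2B genes, whose products recharge eIF2 with GTP, were uncalled with a median of -0.11. Among them Eif2b2 was at -0.29 (SE 0.21, edgeR adjusted p 0.548), with both depletion libraries below both controls, and Eif2b5, the catalytic subunit, was at -0.11 (adjusted p 0.589) with overlapping groups.

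The 4 kinases that phosphorylate eIF2 alpha were not called in either direction. Eif2ak3, which encodes the endoplasmic reticulum stress sensor PERK, had 46 and 43 counts in the controls against 94 and 111 after depletion, or 13.8 and 11.7 CPM against 15.8 and 19.8 CPM. Both depletion libraries were higher, and the log2 fold change of 0.48 (SE 0.19, 95% interval 0.09 to 0.86) was the highest of the group, with an edgeR adjusted p of 0.193. The heme-regulated kinase Eif2ak1 was at 0.06, the double-stranded RNA sensor Eif2ak2 (PKR) at -0.04 and the amino acid sensor Eif2ak4 (GCN2) at 0.05, with adjusted p of at least 0.811. Their changes were within 0.1 of 0, although Eif2ak4 was above the controls in both depletion libraries.

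Within eIF3, only Eif3g was called. Of 14 genes, 13 were tested, 1 was called and 9 were below 0, beside 50.6% of all genes tested, with a median of -0.09. Apart from Eif3g, the log2 fold changes ran from -0.33 in Eif3l to 0.20 in Eif3j1. Those 2 genes are named after their values were seen. Eif3l had 66 and 101 counts in the controls against 109 and 110 after depletion, or 19.8 and 27.6 CPM against 18.3 and 19.6 CPM, with an edgeR adjusted p of 0.2996. Its control libraries differed more than its groups were apart. Eif3j1, a loosely bound subunit, had 79.3 and 84.1 CPM in the controls against 96.3 and 90.9 CPM after depletion, without overlap (adjusted p 0.222).

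Eif4b was the gene called in the cap-binding and helicase group. It encodes a cofactor of the helicase eIF4A and lies at chr15:102073773-102097173 on the plus strand (ENSMUSG00000058655). It held 1559 and 1688 counts in the controls against 2397 and 2288 after depletion, or 469 and 461 CPM against 403 and 407 CPM. The replicates nearly coincided and the groups did not overlap. The mean went from 465 ± 5.53 to 405 ± 3.20 CPM (87.2% of control), and the log2 fold change was -0.20 (SE 0.05, 95% interval -0.30 to -0.09). The edgeR QL adjusted p was 0.0285, and the call held in 9 of 14 alternatives. The adjusted p was 0.618 in DESeq2, 0.0537 with an offset for gene length, 0.0539 without control replicate 1, 0.307 without depletion replicate 1 and 0.297 without depletion replicate 2.

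No other gene of the cap-binding and helicase group was called, nor any gene for eIF4E-binding proteins and transporters. The cap-binding protein gene Eif4e was at -0.00 (95% interval -0.12 to 0.12), the helicase gene Eif4a1 at -0.06 (-0.17 to 0.04) and the scaffold gene Eif4g1 at -0.07 (-0.25 to 0.11). Eif4a2, at -0.11 (-0.21 to -0.02), and the eIF4A cofactor gene Eif4h, at -0.14 (-0.27 to -0.01), had intervals wholly below 0. Of the 10 genes in the cap-binding and helicase group, 9 were below 0, beside 50.6% of all genes tested, and the median was -0.06. Among the 4 genes for eIF4E-binding proteins and transporters, Eif4ebp1 was at 0.01 (-0.11 to 0.12) and Eif4ebp2 at -0.11 (-0.24 to 0.02), while Eif4ebp3 had a wider interval at 0.05 (-0.36 to 0.45). None of the 5 genes classed here with the scanning factors was called, with a median of 0.01. Eif1ad had the largest change in this class at 0.16 with overlapping groups, or -0.07 without control replicate 1. Of the factors for subunit joining, Eif5, the GTPase activator of eIF2, was at 0.08 (-0.05 to 0.21) and Eif5b, the joining GTPase, was at -0.18 (-0.35 to -0.0048).

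The 59 genes not called ran from -0.33 to 0.48, and 57 of them changed by less than 0.3 on the log2 scale, with Eif3l and Eif2ak3 as the exceptions. A 2-fold change lay outside the 95% interval of 58 of the 59, the exception being Eif3i (-1.09 to 0.51), which had 11 and 12 counts in the controls against 19 and 12 after depletion. In 48 of the 59 the interval lay within 0.5 of 0. Precision followed depth. The median SE was 0.07 over the 48 genes whose mean count reached 100 and 0.21 over the 15 tested genes with fewer. Eef1akmt2 and Eif3g were among the 15.

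**Figure D3:**
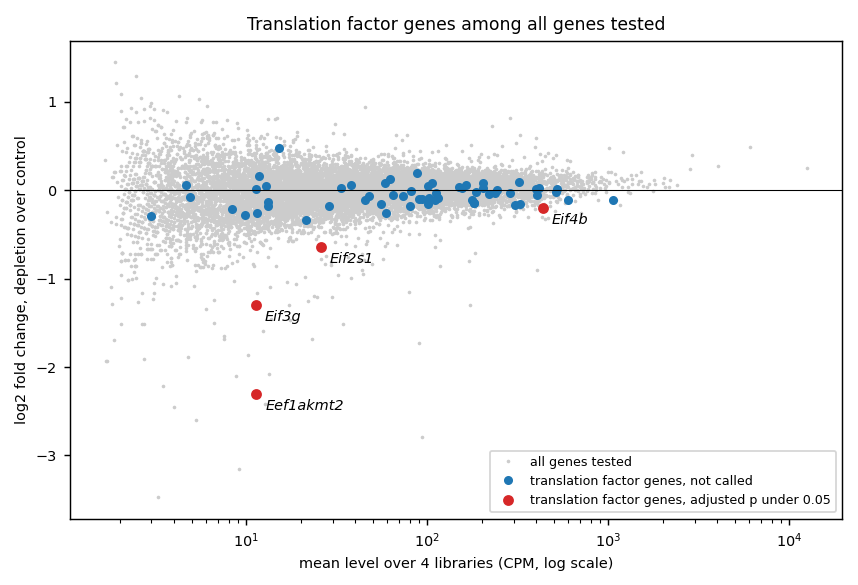
Log2 fold change of depletion over control (y axis) against the mean CPM over 4 libraries (x axis, log scale). Grey points are all 11853 genes tested, blue points are translation factor genes not called and red points the 4 called. The blue points lie between -0.33 and 0.48, and Eef1akmt2 and Eif3g lie with the few grey points far below 0.

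As a whole, the group lay slightly below the rest of the table. The median log2 fold change of its 63 genes was -0.07, with quartiles of -0.16 and 0.02, beside -0.00 over all genes tested, with quartiles of -0.13 and 0.11. The scaling puts the middle of all genes near 0, so the all-gene median cannot show whether the whole table moved. Of the 63, 42 (66.7%) were below 0, beside 50.6% of the whole table. The depletion pair lay below the control pair in 26 genes (41.3%), beside 22.9% of all genes, and above in 5 genes (7.94%), beside 23.4%. In the remaining 32 genes the groups overlapped. The median mean count was 430 in the group and 163 in all genes, and the median annotated length was 17751 against 22210 bp. With an offset for gene length the median of the group was -0.055 and that of all genes -0.01. Over only the genes whose mean count reached 100, these medians were -0.0665 and -0.0029. Genes were not matched by depth, and the part of depth was not tested. These values describe a group set with earlier results known, with 2 libraries a condition.

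The median of the group moved with the scaling, and its distance from the median of all genes moved with other settings. With the size factors recovered from the deposited mean normalized signal, the median of all genes moved to -0.11 and that of the translation factor genes to -0.17, a distance of -0.065 as in the reported fit. The distance was smaller with the length offset, at -0.043, and without depletion replicate 1, at -0.046. With the recovered factors 12 of the 63 genes were called lower, beside 5.89% of all genes, and 0 were called higher, beside 0.413%. The 12 were Eef1akmt2, Eif3g, Eif2s1, Eif4b, Eef1d, Eif5b, Eef2, Eef1g, Eif4h, Eif1, Eef1a1 and Eif4a2. Of these, Eef1g, Eif4h, Eif1 and Eif4a2 were named after their values were seen. Relative to the all-gene median under the same factors, Eef1akmt2 was at -2.30, Eif3g at -1.30, Eif2s1 at -0.64 and Eif4b at -0.20, and the other 8 between -0.26 and -0.11.

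**Figure D4:**
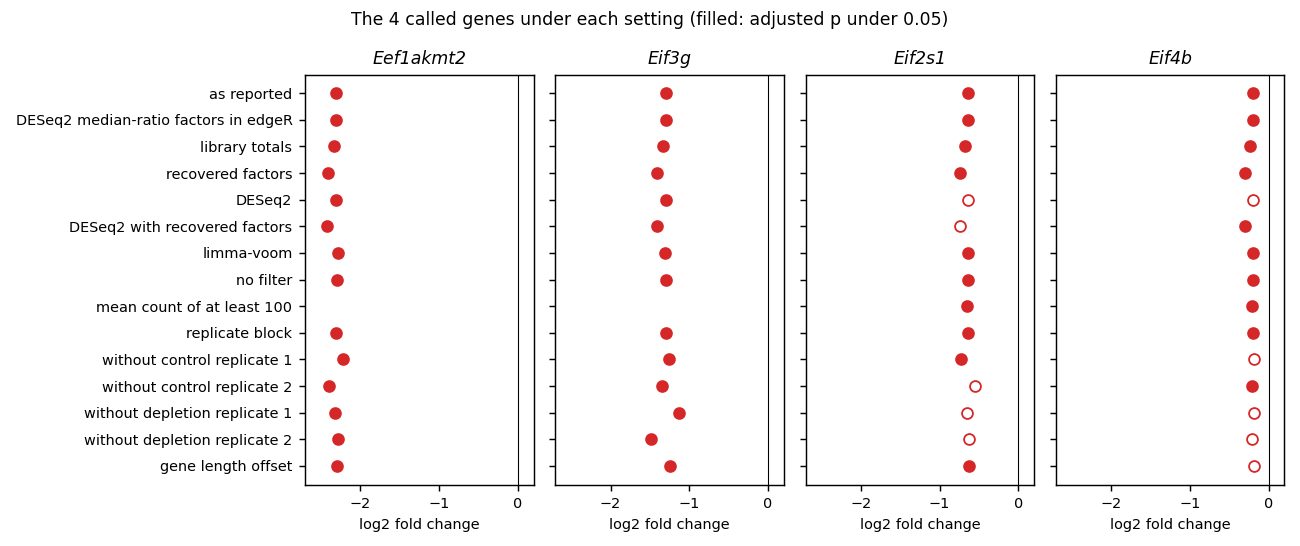
Log2 fold change of the 4 called genes (x axes, the same in each panel) in the reported fit and in each of the 14 alternatives (rows). Filled points have an adjusted p under 0.05 and open points do not, and a missing point means the gene was not tested. Eef1akmt2 and Eif3g are filled wherever tested, while Eif2s1 and Eif4b are each open in 5 rows.

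The level of transcription per length varied widely within the group. In the controls it ran from 0.210 CPM per kb in Eif2ak3 to 164 CPM per kb in Eif4a2. Eif1, a start codon selection factor, had 85.8 CPM per kb, Eif4a1 had 74.9 and Eef1a1 had 58.1. The genes called were not the highest. Eef1akmt2 had 0.751 CPM per kb, Eif2s1 1.25, Eif3g 3.75 and Eif4b 19.9. Only uniquely placed reads were counted, so reads shared with multi-copy relatives, such as those of Eef1a1 and Eif4a1, would be missing from these levels. The length used is the annotated gene span and not the transcript that was counted. How far either shifts the levels was not tested.

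Genes that work with these factors were examined as a separate list of 77, of which 74 were in the table and 73 were tested. The list held mRNA-binding partners, TOR and S6 kinase signalling, eIF2 phosphatases, factors for release and recycling, mitochondrial translation factors and the enzymes that make hypusine and diphthamide. Its median log2 fold change was -0.01 and 38 of 73 were below 0, beside 50.6% of all genes tested. Of the 73 genes tested, 3 were called lower, beside the same 1.4% of all genes, and 1 was called higher, beside 1.11%.

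Dph7, an enzyme of diphthamide synthesis on eEF2, had 185 and 206 counts in the controls against 255 and 215 after depletion, or 55.9 ± 0.443 against 40.6 ± 3.23 CPM. Its log2 fold change was -0.46 (SE 0.11, edgeR adjusted p 0.0128). Metap2, a methionine aminopeptidase that also binds eIF2, went from 35.4 ± 1.23 to 25.4 ± 2.63 CPM, a change of -0.48 (SE 0.13, adjusted p 0.0396). Pabpc4, a poly(A)-binding protein, went from 123 ± 14.9 to 99.6 ± 4.18 CPM, a change of -0.30 (SE 0.08, adjusted p 0.0357). Each of the 3 had its depletion libraries below its controls, as did 22.9% of all genes tested. The 3 are named because they were called lower in these same libraries, so the separation adds no support. None of the 3 was called without depletion replicate 1 or without depletion replicate 2, and only Dph7 was called without control replicate 1, where Pabpc4 was at -0.18. Metap2 was also not called without control replicate 2.

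Pdcd4, an inhibitor of the helicase eIF4A, rose. It had 1049 and 724 counts in the controls against 2549 and 2005 after depletion, so that both depletion libraries were higher, although its control libraries differed from each other. The mean went from 256 ± 83.2 to 393 ± 50.5 CPM, and the log2 fold change was 0.62 (SE 0.11, edgeR adjusted p 0.000592). Its size rested on the controls, at 0.99 without control replicate 1 and 0.32 without control replicate 2. No partner gene was called in DESeq2, with either set of size factors, and Pdcd4 was also not called without depletion replicate 1 (0.48, edgeR adjusted p 0.126). The other genes of the list were not called.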

How the data were processed

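PRO-seq was run on 2 control and 2 depletion libraries, which the labels number as replicates and the methods call biological replicates. Per the methods and the submitters' processing notes, the authors separated the unique molecular identifiers, trimmed adapters with cutadapt 1.18, mapped reads to mm10 with Bowtie 1.2.2, kept single best positions, collapsed reads by identifier and counted the last base of nascent RNA over genes whose starts were corrected with CAGE. The deposited counts are whole numbers per gene and are not normalized. The authors also deposited a DESeq2 table with a mean normalized signal per gene, used here only to recover its size factors, and with fold changes, errors, p-values and calls, which were not used. Their methods describe scaling to Drosophila S2 spike-in cells, whose reads were not used here, and no untagged line with auxin.

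The members, the lists and the word searched were chosen with earlier results of these data known. Counts were filtered with filterByExpr (minimum count 10, minimum total 15), which removed 633 genes, scaled by TMM and tested across all genes with edgeR 4.0.16 in R 4.3.3 (glmQLFit, glmQLFTest, two-sided). The SE is that implied by the F statistic. By rule, the text names every called member, the member of each role class with the largest change, a set of central factors, members removed by the filter and called partner genes. Members named outside this rule, with their values known, were Eef1e1, Eef1g, Eif1, Eif3i, Eif3j1, Eif3l, Eif4a2, Eif4ebp3, Eif4enif1 and Eif4h. Positions are from GENCODE M21, which matched 12474 of 12486 identifiers and lacks the corrected starts. Promoters are from RefSeq GRCm38.p6. Between control replicates the chi-square per degree of freedom was 1.88, and 1.50 between depletion replicates, so all were kept as separate samples. Alternatives used DESeq2 1.42.0 and limma 3.58.1. Scripts were tested on simulated data. Depth was 3298864 to 6045216 counts a library, and precision is given by the SE and intervals.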

Additional observations from a re-analysis of the deposited data

How the results depend on the processing

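In the 14 alternatives, 33 named genes gave 454 values, of which 421 stayed on the same side of the threshold, 28 lost a call, 5 gained one and 0 were called in the opposite direction. Values of 13 genes called in neither fit changed sign 34 times. Counts of translation factor genes called lower went from 4 to 12 with recovered size factors, 2 in DESeq2 and 2 at a mean count of at least 100, where Eef1akmt2 and Eif3g were not tested and the count by 2-fold was therefore 0. Leaving out 1 library gave 2 to 4, with 2 without either depletion library. Their median of -0.07 was -0.10 with library totals, -0.17 with recovered factors, -0.16 in DESeq2 with those factors, -0.055 with the length offset and -0.073 to -0.047 with 1 library left out. Of all genes, 166 were lower, against 698 with recovered factors, 61 in DESeq2 and 75 to 226 with 1 library left out, and 132 were higher, against 64 with library totals, 49 with recovered factors, 14 in DESeq2, 4 in DESeq2 with those factors, 59 with the length offset and 21 to 271 with 1 library left out. Partner genes called lower numbered 5 with recovered factors, 0 in DESeq2 with either set of factors and 0 to 2 with 1 library left out, and those called higher numbered 0 in DESeq2 with either set and 0 to 1 with 1 library left out. The labels give no pairing by replicate number, and deviations of same-numbered libraries correlated at 0.03 over all genes and 0.11 over genes whose mean count reached 100, with 2 pairs only. The replicate block gave 6 translation factor genes lower (Eef1akmt2, Eef1g, Eef2, Eif2s1, Eif3g and Eif4b), with Eef2 at -0.17 (edgeR adjusted p 0.0273), and 300 genes lower and 366 higher in all. The causes of these differences were not tested. Leave-one-out fits assume that the lone library varies like the other group. Below a mean count of 100 the median SE was 0.21, against 0.07 above it, so that smaller changes were not detectable there.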
